A study of Rattus norvegicus with 24 samples.

Results

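Striatal interneurons are represented here by 8 marker genes: Sst, Npy and Vip, which encode the peptides somatostatin, neuropeptide Y and vasoactive intestinal peptide; Nos1, the neuronal nitric oxide synthase; Pvalb and Calb2, the calcium-binding proteins parvalbumin and calretinin; and Chat and Slc5a7, the acetylcholine-synthesising enzyme and the high-affinity choline transporter. Every probe whose gene symbol is one of these was taken. That gave 1 probe each for 7 of the 8 genes, among 22523 probes and 13337 named genes on the array. Chat had no probe annotated to it in the tables used here and was not analysed here. All 7 probes were among the 10351 tested, a set that required a signal above background on at least 6 of the 24 arrays.

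RNA of dorsal striata from male Sprague-Dawley rats was hybridised to Illumina RatRef-12 BeadChips, glass slides carrying 12 single-colour arrays, with 1 array per sample. METH rats gave themselves methamphetamine intravenously, 0.1 mg/kg per injection, in 15 h sessions over 8 d, and were killed 2 h or 24 h after the last session. Control rats were yoked saline rats, which in such a design receive saline passively when the partner animal earns an infusion. Their time of death is not in the labels. Each METH group was set against the saline group on the same slides: METH 2 h (n = 6) and saline (n = 6) on slide 1, and METH 24 h (n = 6) and saline (n = 6) spread over slides 2 and 3, with 3 arrays of either group on each slide. All groups share strain, sex, tissue and the yoked self-administration setting, and no genetic change was made. The labels do not state in words that each array is a separate animal, so the p-values measure the spread between these arrays, which may in part be technical. A level below is the log2 of the background-corrected, quantile-normalized signal, and it can be compared between arrays for 1 probe but not between probes. A change is the METH mean minus the saline mean on that scale, taken from 1 limma fit across all 10351 probes with Benjamini-Hochberg adjustment, and it was called at an adjusted p under 0.05.

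Interneurons are a small minority of striatal neurons, which are mostly GABA-releasing projection neurons. One class carries Sst, Npy and Nos1 together and fires at low threshold. Fast-spiking Pvalb cells give strong inhibition to projection neurons, Calb2 cells form a further GABA class, and the large cholinergic cells set the acetylcholine tone against which dopamine acts. Vip cells are a well-known class in cortex and are sparse in striatum, where Vip peptide acts through receptors that raise cyclic AMP. Somatostatin and neuropeptide Y act through receptors that lower it. In bulk tissue, fewer cells of a class and less RNA per cell cannot be told apart, and this holds for every change below.

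The title of the series names phosphorylated CREB, a factor known to bind the cyclic AMP response element, so the promoter letters are shown for the 3 peptide genes and for Nos1. RefSeq windows (build GRCr8) ran from 250 bases before to 50 bases after the start that the table gives, and 7 of the 8 genes had one. The full element TGACGTCA and its short core TGACG were searched on both strands, and a full element also counts as a core on each strand. Of all 33469 promoter windows in the table, 612 (1.83%) held the full element and 7097 (21.2%) held the core. Sst held the full element 3 to 10 bases after its annotated start, and Nos1 held it at positions -9 to -2 before its own. Whether transcription begins at these annotated starts was not tested. Vip held 1 core, at positions -97 to -93. Npy held neither within its window. The 2 windows with the full element are Sst on the plus strand at chr11:90461296-90461595 and Nos1 on the minus strand at chr12:44371788-44372087; the other windows shown are Vip on the plus strand at chr1:44470230-44470529 and Npy on the plus strand at chr4:80211861-80212160. The Nos1 window lies inside the annotated span of the gene (chr12:44276011-44456371) and the Vip window starts 2 bases before the annotated gene (chr1:44470232-44478561), so each shows 1 start site of what may be several. Capitals mark the full element or a core.
Sst: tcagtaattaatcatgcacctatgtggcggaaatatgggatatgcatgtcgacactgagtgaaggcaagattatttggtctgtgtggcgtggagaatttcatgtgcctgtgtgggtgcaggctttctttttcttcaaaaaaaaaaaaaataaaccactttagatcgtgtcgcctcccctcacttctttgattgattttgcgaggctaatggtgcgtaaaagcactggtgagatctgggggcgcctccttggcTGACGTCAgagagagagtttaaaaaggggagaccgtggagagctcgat
Nos1: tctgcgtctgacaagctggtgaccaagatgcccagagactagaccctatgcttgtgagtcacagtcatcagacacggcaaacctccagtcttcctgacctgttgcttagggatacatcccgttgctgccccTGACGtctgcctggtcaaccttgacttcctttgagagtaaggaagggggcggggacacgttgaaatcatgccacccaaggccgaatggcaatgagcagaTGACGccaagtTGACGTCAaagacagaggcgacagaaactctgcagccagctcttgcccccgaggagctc
Vip: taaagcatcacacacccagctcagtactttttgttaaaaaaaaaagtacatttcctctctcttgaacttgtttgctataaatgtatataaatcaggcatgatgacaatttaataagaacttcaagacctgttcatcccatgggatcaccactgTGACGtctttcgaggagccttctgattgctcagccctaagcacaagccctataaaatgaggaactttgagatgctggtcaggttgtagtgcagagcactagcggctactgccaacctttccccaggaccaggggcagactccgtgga
Npy: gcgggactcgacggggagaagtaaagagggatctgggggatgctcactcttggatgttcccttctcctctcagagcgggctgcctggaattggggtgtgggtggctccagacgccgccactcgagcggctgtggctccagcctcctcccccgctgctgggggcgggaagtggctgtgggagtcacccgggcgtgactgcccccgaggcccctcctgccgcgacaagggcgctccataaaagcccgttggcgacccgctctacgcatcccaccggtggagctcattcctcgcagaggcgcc
Of the remaining genes, Slc5a7 held 2 cores, and Pvalb and Chat held 1 each. A match in these letters describes the window and is not a measured binding site.

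None of the 7 measured genes was called at either time or for the difference between the times. At 2 h, 0 of 7 passed while 0.0676% of all tested probes did (7 probes), and at 24 h 0 of 7 passed against 0.0483% of all (5 probes). For the METH effect at 24 h minus that at 2 h, 0 of 7 passed and 0% of all probes did. At an unadjusted p under 0.05 the counts were 3 of 7 at 2 h (Vip, Npy and Nos1) against 9.23% of all tested probes, 0 of 7 at 24 h against 1.94%, and 2 of 7 for the difference (Vip and Nos1) against 4.86%. The median change over the 7 genes was 0.18 at 2 h, where that of all tested probes was -0.004, and 0.08 at 24 h, where that of all was -0.002. The plot of changes with their intervals shows Vip at 2 h far to the right of the other 13 estimates.

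**Figure D1:**
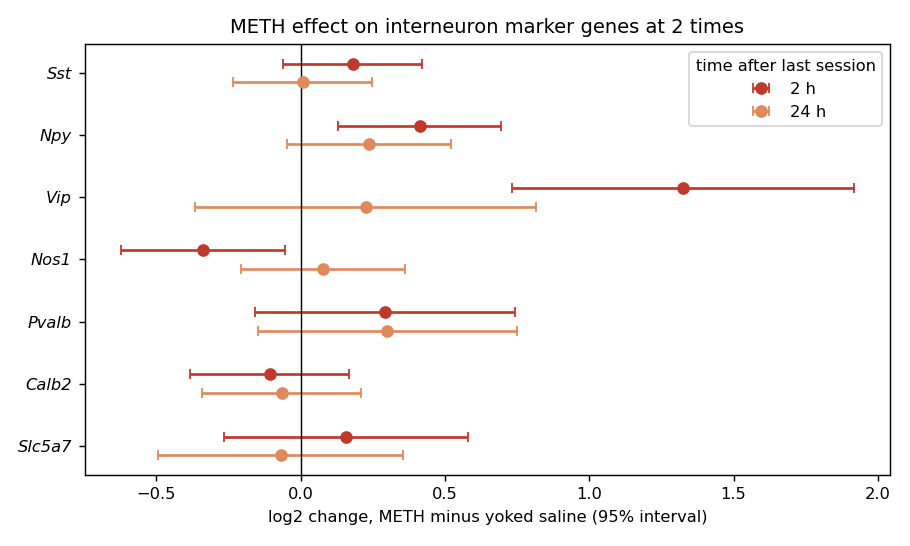
Log2 change (METH minus yoked saline) of each interneuron marker gene at 2 h (red) and 24 h (orange), from the fit across all tested probes; bars are 95% intervals and the vertical line marks no change. Vip at 2 h lies at 1.32 with an interval from 0.73 to 1.92, and the interval excludes 0 for Npy and Nos1 at 2 h and for no gene at 24 h.

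Vip showed the widest separation. On the 6 saline arrays of slide 1 its level ran from 4.78 over a median of 5.02 to 5.31, and the probe was not well above background on any of them. On the 6 METH arrays at 2 h it ran from 5.40 over a median of 6.23 to 7.49, and the probe was above background on all 6. In normalized level, every METH array thus stood above every saline array, a pattern that 26 of the tested probes (0.251%) showed at 2 h in this direction; no other of the 7 genes had groups that did not overlap. Among all tested probes, 0.145% had every METH array below every saline array at 2 h, and at 24 h 0.0773% had every METH array above and 0.0966% every METH array below. As background-subtracted intensity, the saline arrays ran from 4.9 to 29.1 and the METH arrays from 28.9 to 195, so before normalization the lowest METH array (replicate 5) lay just below the highest saline array (replicate 1). The group means were 5.02 ± 0.23 (SD, n = 6) and 6.35 ± 0.83 (SD, n = 6), a change of 1.32 (SE 0.29, 95% interval 0.73 to 1.92). Because the saline side is only bounded by background, the METH mean was stated as at least 2.01-fold above the saline mean of these arrays. That bound sets the METH mean against the mean, over the saline arrays, of the lowest signal above background, or the probe's own signal where higher. It holds no sampling error, so it is not a lower limit of the effect. The 95% interval of the fitted fold ran from 1.66 to 3.77. limma gave an adjusted p of 0.0753, so Vip missed the threshold over all probes and ranked 13 among them by p.

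The side of the threshold on which Vip fell depended on the arrays and terms used. It passed without METH replicate 5 (adjusted p = 0.0247, limma), without METH replicate 6 (0.0348), without saline replicate 4 and METH replicate 6 together (0.0300) and with position on the slide as a term (0.0202). A fit of slide 1 alone gave an adjusted p of 0.212, and the whole range over alternatives was 0.0202 to 0.481. The spread between arrays of a group was larger on slide 1 (median SD over all tested probes 0.250) than on slides 2 and 3 (0.176), so the spread shared by all 24 arrays understates that of slide 1. Vip itself varied more than most probes, with an SD within groups of 0.61 on slide 1 (percentile 98.8 of all tested probes) and 0.52 on slides 2 and 3 (percentile 98.6).

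At 24 h the Vip groups overlapped. Saline arrays ran from 4.82 over a median of 5.13 to 5.99, with 3 of 6 above background, and METH arrays from 4.99 over 5.32 to 6.30, with 5 of 6 above background. The highest saline arrays, both on slide 3, reached levels that only 2 of the 6 METH arrays exceeded. The change was 0.23 (95% interval -0.37 to 0.82, adjusted p = 1, limma), with 0.57 within slide 2 and -0.12 within slide 3. The METH effect at 24 h minus that at 2 h was -1.10 (95% interval -1.94 to -0.26, adjusted p = 0.947, limma), so a difference between the times did not pass. Time and slide cannot be told apart in that contrast.

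**Figure D2:**
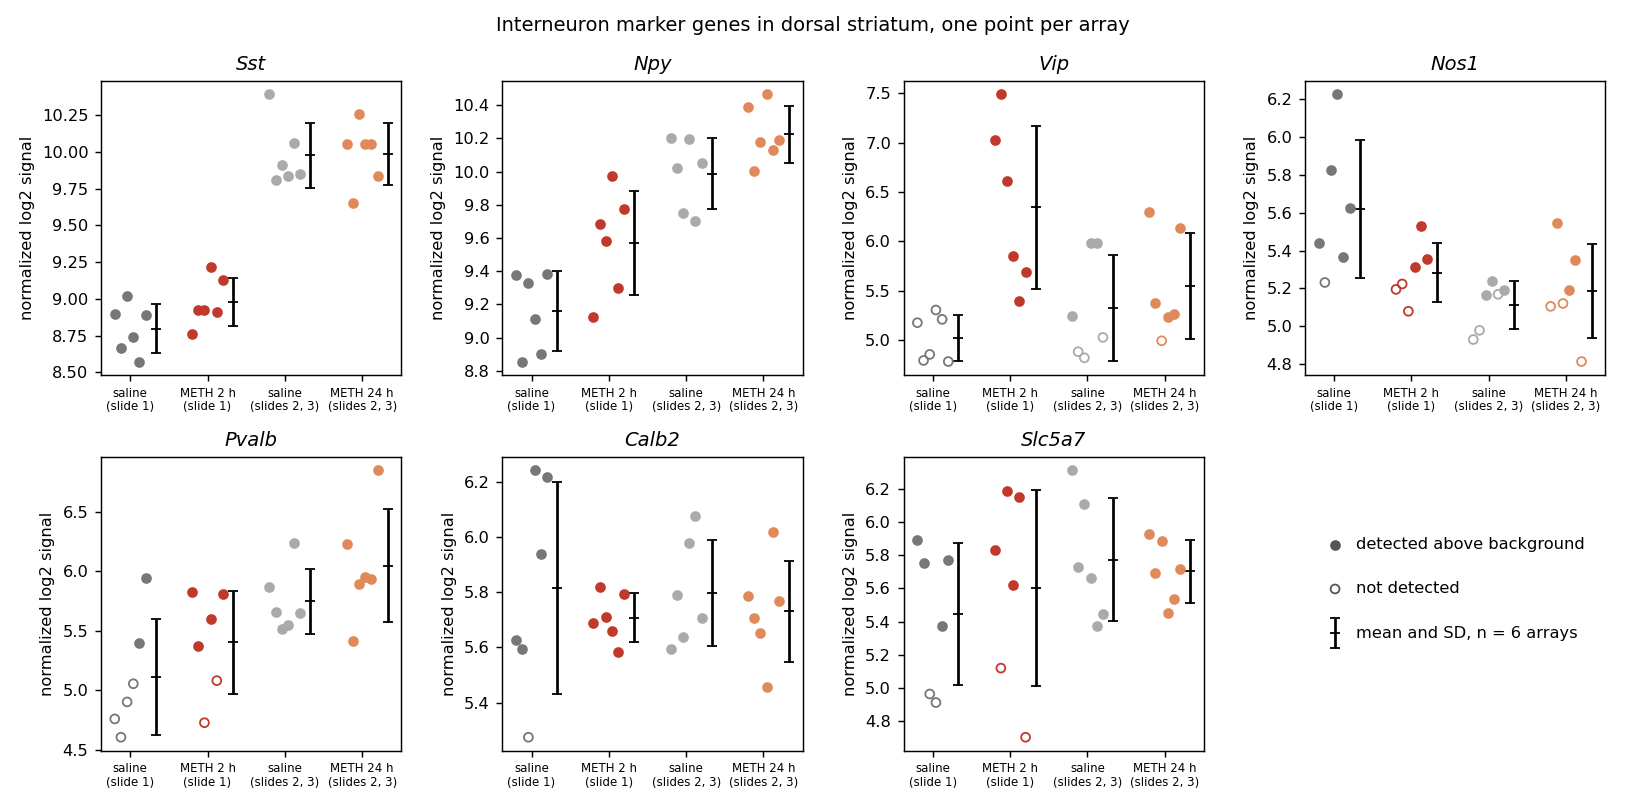
Normalized log2 signal of the 7 measured interneuron marker genes, 1 point per array and 1 panel per gene, by group; open points are below background and bars give mean and SD (n = 6 arrays). Vip on slide 1 is open on all 6 saline arrays and filled on all 6 METH arrays, and Sst and Npy lie higher on slides 2 and 3 than on slide 1 in both treatments.

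Markers of cortical excitatory neurons were listed as those of another cell type that a striatal dissection could hold. Whether each listed gene is particular to that cell type was not tested, and the cortical mean below is named after the list. Of the 14 listed, 11 had a probe and 6 were tested, and none was called at 2 h. The change was above 0 in 5 of these 6, with a median of 0.75, and -0.04 in Emx1. An unadjusted p under 0.05 was found for 4 of the 6 and for 9.23% of all tested probes. Neurod1 and Slc30a3 were above background on no array. The mean level of the 6 tested markers on slide 1 was 6.39 ± 0.34 (SD, n = 6, range 6.02 to 6.87) with saline and 6.99 ± 0.39 (SD, n = 6, range 6.44 to 7.46) with METH at 2 h, and the groups overlapped. Summed as linear signal, they ran from 1881 to 2837 with saline and from 2013 to 2724 with METH at 2 h. In the saline and METH groups of slides 2 and 3 the sums ran from 2010 to 2304 and from 1761 to 2203. Most of each sum was the signal of 1 bright probe, Lamp5. Its mean level was 10.95 with saline and 10.99 with METH at 2 h, a change of 0.04. The sums therefore say little about the other markers. The cortical transcription factor gene Neurod6 had a change of 1.20 (adjusted p = 0.259, limma) and the vesicular glutamate transporter gene Slc17a7 one of 0.83 (adjusted p = 0.153). The 3 METH arrays with the highest Vip level (7.49, 7.03 and 6.61) were also those with the highest cortical mean (7.46, 7.32 and 7.15).

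Within treatment groups on slide 1, Vip deviations went with those of the cortical mean, with Pearson's r = 0.78 and Spearman's rho = 0.76 over 12 arrays (permutation p = 0.0042 and 0.0044; 0.0802 and 0.0619 after adjustment over 28 relations). Without the 2 arrays farthest from the median, r was 0.71. The same r was -0.04 on slides 2 and 3 (adjusted permutation p = 0.965). With the cortical mean as a term in the fit, the Vip change at 2 h was 0.55 (SE 0.32, adjusted p = 0.481, limma) in place of 1.32. The cortical mean was itself higher with METH on slide 1 (6.99 against 6.39), so that fit cannot tell treatment and these markers apart. The part of these markers in the Vip difference was not tested. The lowest METH array for Vip, replicate 5 at 5.40, had a cortical mean of 6.89. That was close to the 6.87 of saline replicate 4, whose Vip level was 5.31. METH replicate 4 (cortical mean 6.68) had Vip at 5.86, against 5.18 in saline replicate 1 (6.76). METH replicate 6 (cortical mean 6.44) had Vip at 5.69, against 5.21 in saline replicate 5 (6.26). In Vip every METH array stood above every saline array of slide 1, so any such pair shows METH higher. These pairs therefore cannot show what part the cortical markers had.

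**Figure D3:**
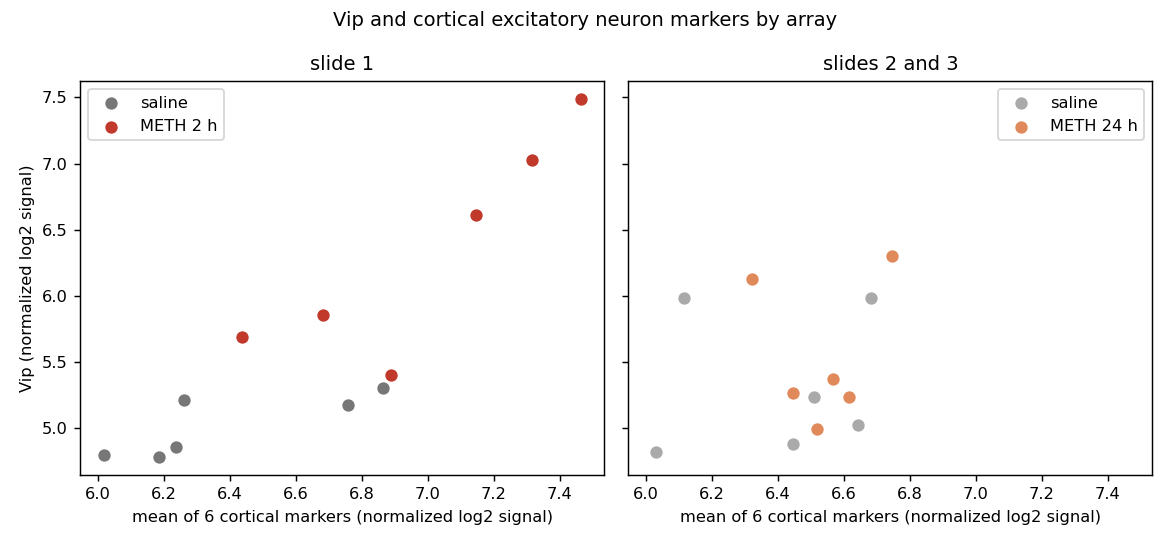
Normalized log2 signal of Vip against the mean of the 6 tested cortical excitatory neuron markers, 1 point per array, slide 1 on the left and slides 2 and 3 on the right. On slide 1 the 3 METH arrays with a cortical mean above 7.1 carry the 3 highest Vip levels, and on slides 2 and 3 the points show no such order.

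Sst and Npy, which mark the low-threshold class together with Nos1, were above background on all 24 arrays. Npy on slide 1 ran from 8.86 over a median of 9.22 to 9.38 with saline and from 9.12 over 9.63 to 9.97 with METH at 2 h. Of the METH arrays, 4 of 6 stood above every saline array, and the other 2 fell within the saline range. The means were 9.16 ± 0.24 and 9.57 ± 0.31 (SD, n = 6 each), 1.33-fold apart, a change of 0.41 (95% interval 0.13 to 0.70, adjusted p = 0.283, limma). Npy on slides 2 and 3 ran from 9.70 over 10.04 to 10.20 with saline and from 10.00 over 10.18 to 10.47 with METH at 24 h, and 2 METH arrays stood above all saline arrays. That change was 0.24 (95% interval -0.05 to 0.52, adjusted p = 1, limma), with 0.20 within slide 2 and 0.28 within slide 3. Npy deviations on slides 2 and 3 went with the cortical mean (r = 0.90, rho = 0.92, n = 12, permutation p = 0.0057 and 0.0029; 0.0802 and 0.0619 after adjustment over 28 relations; r = 0.82 without the 2 farthest arrays), while on slide 1 r was -0.16.

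Sst overlapped at both times. With saline on slide 1 it ran from 8.57 over a median of 8.82 to 9.02, and with METH at 2 h from 8.76 over 8.92 to 9.22, so that 2 of 6 METH arrays exceeded all saline arrays. The change was 0.18 (95% interval -0.06 to 0.42, adjusted p = 0.662, limma). On slides 2 and 3 it ran from 9.81 over 9.88 to 10.39 with saline and from 9.65 over 10.05 to 10.26 with METH at 24 h. The highest and the lowest of these 12 levels were thus a saline and a METH array, and the change was 0.01 (95% interval -0.23 to 0.25, adjusted p = 1). Across the 4 groups the order of means was saline on slide 1 (8.80 ± 0.17), METH 2 h (8.98 ± 0.17), saline on slides 2 and 3 (9.98 ± 0.22) and METH 24 h (9.98 ± 0.21; SD, n = 6 each). The ranges of neighbours on the same slides overlapped, and neither change was called. A step of about 1 log2 unit lay between slide 1 and slides 2 and 3 in both treatments, and there slide and time cannot be told apart. Npy had the same order of groups, 9.16, 9.57, 9.99 and 10.23, also with the larger gap between saline groups than within slides.

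The deviations of Sst and Npy between arrays of a group were then set against each other. Taken from the mean of treatment within slide, they had r = 0.59 and rho = 0.57 over 24 arrays (permutation p = 0.0045 and 0.0067; 0.0945 and 0.141 after adjustment over the 21 pairs of the 7 genes), and r = 0.62 without the 2 farthest arrays. On slide 1 they had r = 0.90 and rho = 0.89 over 12 arrays (adjusted permutation p = 0.0137 and 0.0187), with r = 0.86 without the 2 farthest. On slides 2 and 3 r was 0.31 and rho 0.24 (adjusted permutation p = 0.611 and 0.743), and r was -0.05 without the 2 farthest. Whether r differs between slide 1 and slides 2 and 3 was not tested. On the authors' deposited log2 values, which are not scaled between arrays, r was 0.90 over all 24 arrays, 0.97 on slide 1 and 0.82 on slides 2 and 3. Without scaling, differences in brightness between arrays enter such an r. Among the other pairs on slides 2 and 3, r on deposited values ran from -0.65 (Nos1 and Pvalb) to 0.80 (Sst and Slc5a7). The latter was 0.46 on normalized levels.

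**Figure D4:**
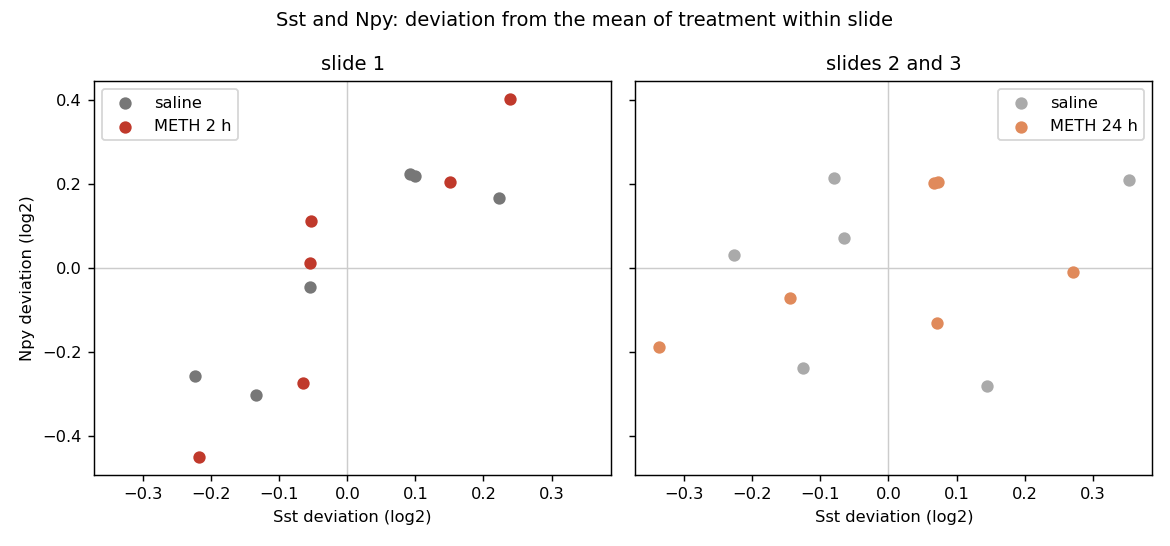
Deviation of Npy against deviation of Sst (log2), each from the mean of its treatment within its slide, 1 point per array, slide 1 on the left and slides 2 and 3 on the right. On slide 1 (r = 0.90) saline and METH arrays lie along 1 rising line, and on slides 2 and 3 (r = 0.31) they scatter.

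Nos1 went the other way from Npy at 2 h. Its level ran from 5.23 over a median of 5.53 to 6.23 with saline, where 5 of 6 arrays were above background, and from 5.08 over 5.27 to 5.53 with METH at 2 h, where 3 of 6 were. No METH array exceeded the saline median, and 3 saline arrays stood above all METH arrays while the other 3 overlapped with them. The highest level, 6.23, was that of saline replicate 4. That array had the fewest probes above background (8208) and the lowest array weight (0.355) of all. The change was -0.34 (95% interval -0.62 to -0.05, adjusted p = 0.418, limma), from 5.62 ± 0.36 to 5.28 ± 0.16 (SD, n = 6 each). With each array left out in turn, it ran from -0.42 to -0.22. At 24 h the groups ran from 4.93 over 5.17 to 5.24 with saline and from 4.81 over 5.15 to 5.54 with METH, each with 3 of 6 arrays above background. That change was 0.08 (95% interval -0.21 to 0.36, adjusted p = 1), 0.23 within slide 2 and -0.08 within slide 3. The effect at 24 h minus that at 2 h was 0.41 (95% interval 0.01 to 0.82, adjusted p = 0.989, limma). In order, the means were 5.62 (saline, slide 1), 5.28 (METH 2 h), 5.19 (METH 24 h) and 5.11 (saline, slides 2 and 3), and the last 3 lay within 1 SD of their neighbours.

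Pvalb was dim on slide 1, with 2 of 6 saline and 4 of 6 METH arrays above background, and above background on all 12 arrays of slides 2 and 3. It ran from 4.61 over a median of 4.98 to 5.94 with saline on slide 1 and from 4.73 over 5.49 to 5.83 with METH at 2 h, and the highest of these levels was a saline array. On slides 2 and 3 it ran from 5.52 over 5.65 to 6.24 with saline and from 5.42 over 5.94 to 6.85 with METH at 24 h, where 1 METH array stood above all others and the lowest was also METH. The changes were 0.29 (95% interval -0.16 to 0.74, adjusted p = 0.710) at 2 h, where it ran from 0.13 to 1.101 over the alternatives, and 0.30 (-0.15 to 0.75, adjusted p = 1, limma) at 24 h. Its spread within groups was at percentile 96 of all tested probes on slide 1 and 95.6 on slides 2 and 3. Among the 21 pairs, Nos1 and Pvalb had r = -0.85 and rho = -0.90 on slides 2 and 3 (n = 12, adjusted permutation p = 0.0155 for both, r = -0.73 without the 2 farthest arrays) but r = 0.13 and rho = 0.20 on slide 1 and r = -0.19 over all 24 arrays. On the deposited values r was -0.65 on slides 2 and 3, 0.61 on slide 1 and 0.16 over all arrays. These values rest on dim probes, with Nos1 at background on 6 of the 12 arrays of slides 2 and 3.

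Calb2 was above background on 23 of 24 arrays and showed overlapping groups at both times. With saline on slide 1 it ran from 5.27 over a median of 5.78 to 6.24, and all 6 METH arrays at 2 h fell inside that range, from 5.58 over 5.70 to 5.82. On slides 2 and 3 it ran from 5.60 over 5.75 to 6.08 with saline and from 5.46 over 5.74 to 6.02 with METH at 24 h. The changes were -0.11 (95% interval -0.38 to 0.17, adjusted p = 0.837) and -0.07 (-0.34 to 0.21, adjusted p = 1, limma). The 4 group means lay between 5.71 and 5.82, closer together than the SD of either saline group.

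Slc5a7, which returns choline to cholinergic terminals, stood for the cholinergic class with no probe annotated to Chat. It ran from 4.91 over a median of 5.57 to 5.89 with saline on slide 1 and from 4.70 over 5.72 to 6.19 with METH at 2 h, with 4 of 6 arrays above background in each group. METH arrays made up both the lowest level and the 2 highest. All 12 arrays of slides 2 and 3 were above background, from 5.37 over 5.70 to 6.31 with saline and from 5.45 over 5.71 to 5.93 with METH at 24 h, the METH arrays lying inside the saline range. The changes were 0.16 (95% interval -0.27 to 0.58, adjusted p = 0.846) and -0.07 (-0.49 to 0.35, adjusted p = 1, limma). Its SD within groups was 0.51 on slide 1 (percentile 97.7) and 0.19 on slides 2 and 3 (percentile 58.2). On slide 1 its deviations had r = 0.75 and rho = 0.76 with the mean of the striatal projection neuron markers (n = 12, permutation p = 0.0126 and 0.011; 0.118 and 0.103 after adjustment over 28 relations), and r = 0.03 on slides 2 and 3.

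Other genes of the same cell classes were taken from lists chosen by function. Of 14 further cholinergic genes, 11 had a probe, 5 were tested and 0 were called at either time, with a median change of -0.16 at 2 h and -0.005 at 24 h. The lowest p-values there belonged to the choline transporter-like gene Slc44a1 (-0.21, adjusted p = 0.732) and the cholinergic transcription factor gene Isl1 (-0.16, adjusted p = 0.789) at 2 h, and to Isl1 (0.10) and the neurotrophin receptor gene Ngfr (-0.10) at 24 h, both with an adjusted p of 1 (limma). Of 38 further GABA interneuron genes, 29 had a probe and 20 were tested. At 2 h, 15 of these 20 had a change above 0 and the median was 0.12, against -0.004 over all tested probes. An unadjusted p under 0.05 was found for 8 of the 20 and for 9.23% of all tested probes. At 24 h 13 were above 0 with a median of 0.06, against -0.002 over all tested probes, and none was called.

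Pnoc, which encodes the nociceptin precursor, was the 1 gene of these called at 2 h. It went from 5.32 ± 0.43 with saline, 3 of 6 arrays above background, to 6.23 ± 0.23 with METH, 6 of 6 above background (SD, n = 6 each), a change of 0.91 (adjusted p = 0.0342, limma), and a change of 0.10 at 24 h (adjusted p = 1). The effect at 24 h minus that at 2 h was -0.81 (adjusted p = 0.737, limma) and did not pass. With 3 saline arrays at background, the size of the change at 2 h rests in part on levels that are not well above background. The call held under 9 of 24 alternatives, and among the 12 fits that leave out 1 array it held only without METH replicate 1, 4 or 6 or saline replicate 4 or 6. Over all alternatives the adjusted p ran from 0.00904 to 0.192, and the highest came with the cortical mean as a term, where the change was 0.82. Kcnc2, a potassium channel gene of fast-spiking cells, had a change of 0.65 at 2 h (adjusted p = 0.0919, limma). That value is for its tested probe of highest mean level. The gene has 3 probes, and the others are not given here. At 24 h the lowest p-values were those of the transcription factor gene Npas1 (-0.27) and the CRH-binding protein gene Crhbp (0.37), each with an adjusted p of 1.

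Of 13 receptor genes for somatostatin, NPY and VIP, 9 had a probe and 2 were tested. Sstr1 had a change of 0.51 (adjusted p = 0.538) and Sstr2 one of 0.30 (adjusted p = 0.768) at 2 h, and -0.04 and 0.07 at 24 h, each with an adjusted p of 1 (limma). The VIP receptor Vipr2 was above background on no array. Of 13 acetylcholine receptor genes, 12 had a probe, 7 were tested and 0 were called. Among the muscarinic receptors, Chrm3 had a change of 0.45 (adjusted p = 0.387) and Chrm4, the inhibitory receptor of projection neurons, one of -0.30 (adjusted p = 0.558) at 2 h, while at 24 h Chrm3 had 0.23 and Chrm1 0.14. Of 20 genes of nitric oxide signalling, which acts through guanylyl cyclase and cyclic GMP, 18 had a probe, 14 were tested and 0 were called, with medians of -0.05 at 2 h and 0.02 at 24 h. The cyclic GMP phosphodiesterase gene Pde5a was above background on 5 of 6 saline arrays and 0 of 6 METH arrays at 2 h (5.33 ± 0.19 and 4.98 ± 0.17, SD, n = 6 each, adjusted p = 0.213). Pde1b had a change of -0.52 at 2 h (adjusted p = 0.582), and Ddah1 (0.26) and Pde9a (-0.17) had an adjusted p of 1 at 24 h.

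The genes whose levels followed the members most closely over the 24 arrays were read as deviations from the slide means, treatment left in, among 7358 tested named genes, and they are given as a description because they are the highest of many. Vip was followed by Ly6e (r = 0.78), the neuronal gene Tagln3 (0.75) and Adcyap1 (0.73), which encodes PACAP, a peptide related to VIP; Adcyap1 had r = 0.84 on slide 1 and 0.20 on slides 2 and 3. Npy was followed by Npdc1 (0.77), Bloc1s1 (0.77) and Tac3 (0.75), a tachykinin gene on the list of GABA interneuron genes, with 0.78 on slide 1 and 0.69 on slides 2 and 3. Sst was followed by Sec13 (0.79), Tmem53 (0.78) and Begain (0.74). For Nos1 the genes were Tmem276 (0.81), Lta (0.78) and Gpnmb (0.78), for Pvalb Tmed10 (0.74), Bola3 (0.72) and Ten1 (0.72), and for Calb2 Lsm14a (0.80), N4bp2l2 (0.78) and Nsg2 (0.77). Slc5a7 was followed by Pigw (0.91), Hectd2 (0.85) and Lin54 (0.76), and the Pigw value was 0.95 on slide 1 and 0.60 on slides 2 and 3. No member was among the 3 closest genes of another.

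The tissue label was checked against 15 striatal projection neuron markers with a probe (of 18 listed), and all 15 were tested; their mean level ran from 10.2 to 10.7 over the 24 arrays. At 2 h, 3 of the 15 had a change above 0 (median -0.22, 7 with an unadjusted p under 0.05, none called), and at 24 h 8 of 15 (median 0.01). Among all tested probes, 9.23% had an unadjusted p under 0.05 at 2 h. Their lowest p-values at 2 h belonged to Itpka (-0.42, adjusted p = 0.135) and the prodynorphin gene Pdyn (0.51, adjusted p = 0.144), and at 24 h to Pdyn (0.18) and Pde10a (0.25), both with an adjusted p of 1. Arrays correlated with each other at 0.922 to 0.991 and no 2 were identical. Between 8208 and 9423 probes were above background on slide 1 and between 9368 and 10297 on slides 2 and 3. The number of arrays, 6 a group, limits the precision of every value above.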

How the data were processed

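Total RNA from 24 samples of dorsal striatum was labelled and hybridised to RatRef-12 BeadChips, per the labels' protocols. Intensity per probe and array was deposited by the authors as a table whose header calls it raw; about 26.4% to 31.7% of values per array lie below 0, so background had been subtracted. The deposited detection p-value columns did not follow the probe order of the intensities (rank correlation -0.0136 to -0.00495), so each array's scores were reassigned by rank, with ties averaged; 1 score is missing. The deposited series table holds log2 values of the same intensities, recomputed here to within 2.17e-06, with array medians from -0.414 to 0.401, and was used as an alternative. No scanner software is named in the labels.

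Intensities were corrected and normalized with neqc (normexp, offset 16, quantile; limma 3.58.1, R 4.3.3). Probes above background (detection p below 0.05) on 6 or more arrays went into lmFit and eBayes in 1 fit of 24 arrays (4 group means and slide 3 against slide 2). Symbols came from the platform annotation, with 13752 of 13793 updated through the GRCr8 gene table; 8730 probes had none. Correlations used 100000 permutations within treatment and slide, two-sided. Named are all members; from each list the called genes and otherwise the 2 of lowest p at each time; and for each member the 3 genes of highest r. Emx1, Neurod1, Slc30a3 and Vipr2 are named outside this rule, after their values were seen. The members, the 14 gene lists including the members, and the tests were chosen with earlier results of these data known. Scripts were tested on simulated data. Alternatives were the deposited values, other scalings and filters, separate fits, array weights, position on the slide, a cortical covariate and arrays left out. The labels mention rats killed at 1 month, which were not analysed here.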

Additional observations from a re-analysis of the deposited data

How the results depend on the processing

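Vip and Npy at 2 h stayed above 0 under every alternative run (Vip 0.55 to 2.68, Npy 0.33 to 0.67), as did Sst (0.13 to 0.42) and Pvalb (0.13 to 1.101), and Nos1 at 2 h stayed below 0 (-0.54 to -0.22). The number of probes called at 2 h, 7, was 2 with array weights, 2 on the deposited values, 3 on these centred, 3 without a filter, 1 in a separate fit, 1 with separate normalization and fit, 17 with slide position, 29 without saline replicate 4 and METH replicate 6, and 3 to 17 with each array left out. Of the interneuron genes, 0 were called at 2 h, but 1 (Vip) with slide position and 1 without those 2 arrays, and 0 to 1 with each array left out. At 24 h the count of 5 was 0 on the deposited values, 0 centred, 3 without a filter, 8 in a separate fit, 8 with separate normalization and 1 within slide 3. For the difference, 0 became 4 with array weights and 0 to 4 with each array left out. Signs turned for small changes. On the deposited values these were Calb2 at 2 h (0.041, centred 0.0099), Slc5a7 at 2 h (-0.14, centred -0.17, and -0.033 with median scaling), Sst at 24 h (-0.021), and the differences of Calb2 (-0.15), Pvalb (-0.72) and Slc5a7 (0.0058). Within slide 2, Calb2 at 24 h was 0.042 and Sst -0.049; within slide 3, Nos1 was -0.080, Slc5a7 0.076 and Vip -0.12. Sst at 24 h was -0.0011 with slide position. Leaving out each array turned the sign of Sst (-0.047 to 0.092), Nos1 (-0.0050 to 0.16), Slc5a7 (-0.12 to 0.0049) and Calb2 (-0.11 to 0.010) at 24 h, and of the differences of Calb2 (-0.044 to 0.15) and Pvalb (-0.16 to 0.12). The correlation of Sst and Npy was 0.59 over all arrays, 0.90 on slide 1 and 0.31 on slides 2 and 3. On the deposited values, which are not scaled between arrays, it was 0.90 over all arrays and 0.82 on slides 2 and 3. That of Nos1 and Pvalb was -0.19 over all arrays, 0.13 on slide 1, -0.85 on slides 2 and 3 and, on the deposited values, 0.16 over all arrays and -0.65 on slides 2 and 3. The cause of these shifts was not tested. Vip, Nos1, Pvalb and Slc5a7 lie near background on slide 1. A bound was given for Vip alone, where no saline array was above background. For Nos1, Pvalb and Slc5a7 the size of the fitted change rests in part on levels that are not well above background. No paired analysis was possible because the labels give no replicate numbers that the groups share.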

Other observations

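Lists of cell types other than neurons of the striatum and cortex are given as values. Of 6 tested blood markers 0 were called at 2 h, where Hbb-b1 had -0.40 (adjusted p = 0.645) and Hbb -0.38 (0.679). At 24 h 4 haemoglobin genes fell in METH rats. The log2 change was -1.80 in Hbb-b1 (adjusted p = 0.000925, limma) and -1.75 in Hbb (0.00155). Hba-a3 had -1.51 (0.00155) and Hba-a1 -1.69 (0.00583). These calls held in fits without any 1 array. On the deposited values the adjusted p ran from 0.116 to 0.275, within slide 2 or slide 3 alone it ran from 0.126 to 0.828, and for Hba-a1 without a filter on dim probes it was 0.0807. Among 7 tested microglia markers 6 were above 0 at 24 h (median 0.35, none called), with C1qb at 0.55 and Tyrobp at 0.38, and at 2 h Itgam had -0.14 and C1qa 0.22. Of 7 astrocyte markers none was called, with Gfap at 0.43 and Gja1 at -0.16 at 2 h and Aldoc at 0.35 and S100b at 0.28 at 24 h. Of 7 oligodendrocyte markers none was called, with Cnp at -0.25 and Mobp at -0.18 at 2 h and Ermn at -0.17 and Cnp at -0.12 at 24 h. Of 3 tested genes listed as markers of globus pallidus, basal forebrain and thalamus none was called. Prkcd had 0.26 and Calb1 -0.27 at 2 h, and Prkcd had 0.49 and Nefh 0.08 at 24 h. Whether the signal of these genes, Calb1 among them, came from those regions was not tested. Of 2 tested choroid plexus markers, Ttr had -1.53 (SD 3.01 among saline arrays) and Prlr -0.03 at 2 h, and Ttr -1.33 at 24 h, neither called. Among the genes listed as cortical markers, Lamp5 had -0.12 and Slc17a6 0.30 at 24 h, with a median of 0.16. No array stood apart from its group in the 28 groups of levels checked for the interneuron genes.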
